A study of Mus musculus with 15 samples.

Results

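Runx1, Gata2, Tal1, Lmo2, Lyl1, Fli1, Erg, Gfi1, Gfi1b and Myb are transcription factors, or a bridging partner of transcription factors in the case of Lmo2, that are widely used to describe the formation of hematopoietic stem cells (HSCs). They were taken from the deposited table by gene name, which gave 10 genes of the 28876 listed. All 10 passed the filter on low values (at least 0.5 RPM, the reads of a gene scaled to the library total, in at least 1 library), which left 18553 genes in all. Their levels were followed across 15 RNA-seq libraries of the mouse aorta-gonad-mesonephros (AGM) region, the embryonic tissue in which HSCs first mature. The 5 groups hold 3 libraries each. E9 AoD and E9 AoV are the dorsal and the ventral part of the dorsal aorta with the tissue around it in embryos of stage E9.5, E10 AoD and E10 AoV are the same parts at E10.5, and E10 UGR is the urogenital ridges that flank the aorta at E10.5. All embryos were wild-type C57BL/6 and received no treatment, and each library was made from RNA of subdissected tissue pooled over many embryos, so that a library averages over cell types and over animals. Within a group the pools came from separate experiments, so the p-values measure the spread between pools of a group. Parts of the same stage can come from the same embryos, and the main fit uses no such pairing. Depth was between 33.8 and 48.6 M reads assigned to genes per library, libraries of a group correlated across genes with Pearson r between 0.993 and 0.997, and no member fell below a level worth 3 reads (0.0617 to 0.0889 RPM) in any library.

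The first HSCs arise from endothelial cells on the inner wall of the dorsal aorta, which bud into the lumen as clusters and switch from an endothelial to a hematopoietic programme. Runx1 is required for that switch, Gata2 for the budding cells to form and persist, and Tal1, Lyl1 and Lmo2 form complexes with GATA factors that act both there and in red cells. Fli1 and Erg are ETS factors of endothelium and of HSCs, Gfi1 and Gfi1b are repressors that shut off endothelial genes downstream of Runx1, and Myb is needed for definitive but not for primitive blood formation. Several of these genes are also expressed outside blood, so a level in whole tissue is not a measure of HSCs, and in such tissue fewer cells of a type and less RNA per cell cannot be told apart.

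The members differed widely in how much they moved between groups. The highest group mean of Gfi1 was 16.3 times its lowest, that of Gata2 11.6 times and that of Runx1 6.90 times. The ratio was 2.65 for Fli1, 2.23 for Myb and 2.09 for Lyl1, and it lay between 1.31 and 1.69 for Lmo2, Tal1, Erg and Gfi1b. By group mean, Runx1 and Gfi1 were highest in the ventral aorta at E10.5, Gata2 and Myb in the urogenital ridges and Fli1 in the dorsal aorta at E10.5. The lead of Gfi1 over E9 AoV and that of Myb over E10 AoV did not pass the test used below (limma adjusted p = 0.36 and 0.33). The plot of levels by library shows the level of each member in every group.

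**Figure D1:**
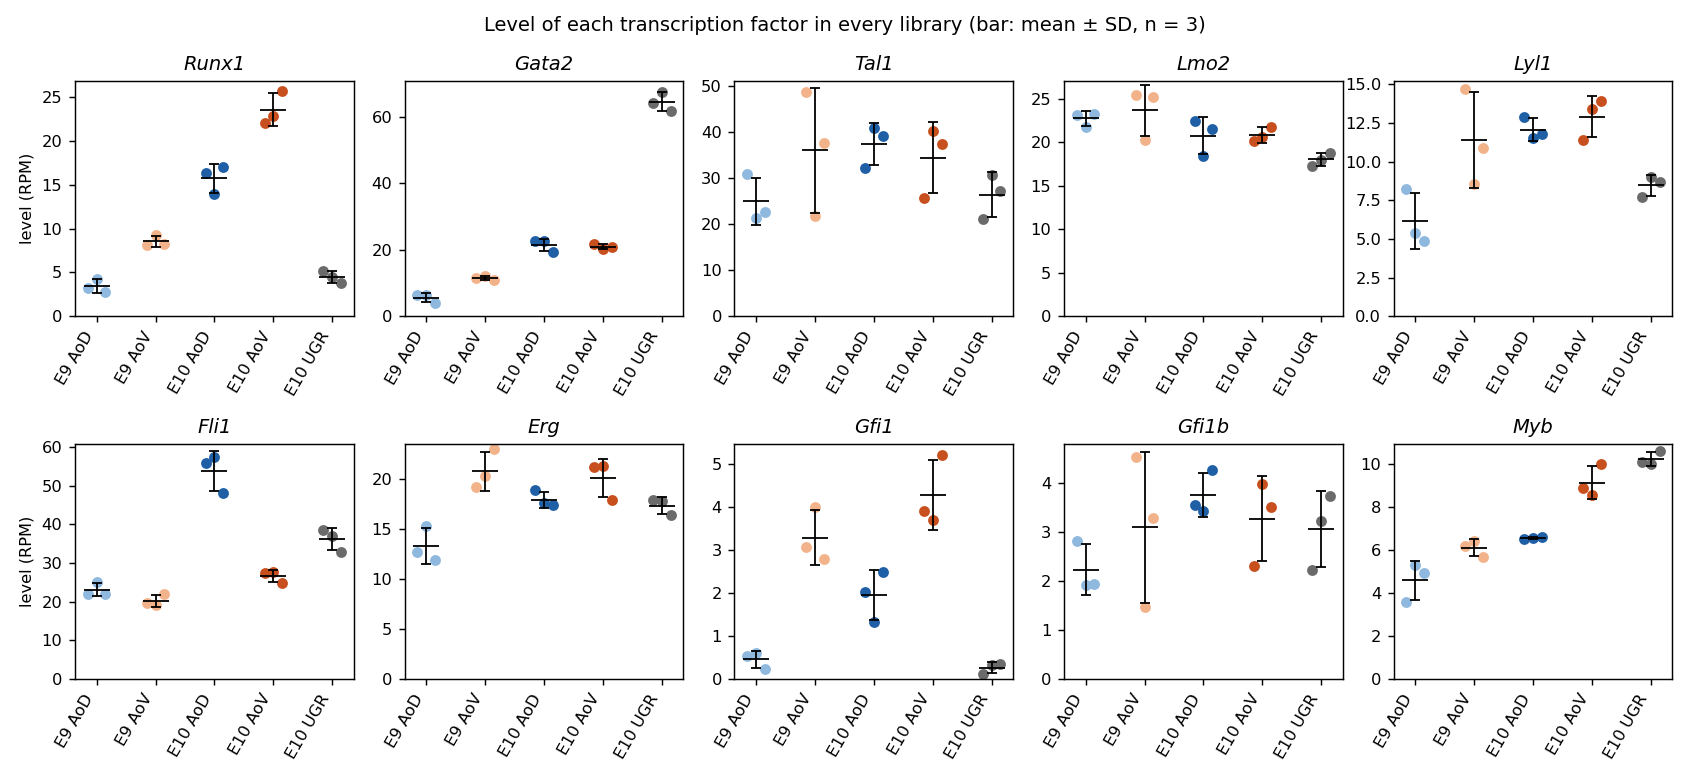
Level of each of the 10 transcription factors in RPM (linear axis from 0) in every library, by group. Points are the 3 libraries and the bar is their mean ± SD. Runx1 rose from E9 to E10 in both parts of the aorta and stood at 3.42 to 4.47 RPM in E9 AoD and E10 UGR, Gata2 was highest in E10 UGR, Fli1 in E10 AoD, and the libraries of Tal1 and Gfi1b spread widely within E9 AoV.

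Runx1 (ENSMUSG00000022952, NCBIM37 chr16:92601712-92826311, minus strand) encodes the DNA-binding subunit of the core-binding factor. It has a distal and a proximal promoter, and the gene-level value sums the transcripts of both. The 250 bases before each start, from RefSeq on GRCm38.p6, are shown because this was the member for which each step in the order of the groups passed the test, with capitals for matches to an E-box (CAGNTG) in the distal window and to an ETS motif (CCGGAA) in the proximal window, on either strand. The distal window lies at chr16:92826075-92826324 and the proximal at chr16:92697330-92697579, both on the minus strand.
Runx1 distal: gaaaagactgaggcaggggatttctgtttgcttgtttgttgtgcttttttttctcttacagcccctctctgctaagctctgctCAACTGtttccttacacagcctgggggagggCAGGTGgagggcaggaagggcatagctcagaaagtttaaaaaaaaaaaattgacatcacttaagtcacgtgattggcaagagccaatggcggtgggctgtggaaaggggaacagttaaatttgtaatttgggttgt
Runx1 proximal: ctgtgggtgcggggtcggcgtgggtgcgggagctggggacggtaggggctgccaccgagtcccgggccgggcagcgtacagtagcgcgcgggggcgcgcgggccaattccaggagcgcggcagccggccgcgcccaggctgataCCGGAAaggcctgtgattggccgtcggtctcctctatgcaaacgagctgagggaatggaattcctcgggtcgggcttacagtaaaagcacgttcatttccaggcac

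At E9.5 Runx1 measured 3.17, 4.30 and 2.78 RPM in the libraries of AoD and 8.09, 9.25 and 8.29 RPM in those of AoV. At E10.5 it measured 16.3, 13.9 and 17.0 RPM in AoD, 22.1, 22.9 and 25.7 RPM in AoV, and 5.15, 4.42 and 3.83 RPM in UGR. Except for E9 AoD and E10 UGR, the groups did not overlap. The difference between neighbours in the order E10 AoV, E10 AoD, E9 AoV, E10 UGR and E9 AoD passed the test at each step, with a limma adjusted p (Benjamini-Hochberg over all tested genes) between 9.6e-05 and 0.029. Between stages Runx1 rose by 1.45 ± 0.14 on the log2 scale in the ventral aorta (2.74-fold, adjusted p = 1.1e-06 in limma) and by 2.19 ± 0.14 in the dorsal aorta (4.56-fold, adjusted p = 1.3e-08). Errors of log2 differences are standard errors throughout, and a log2 difference is that of log2(RPM + 0.1), which understates the change of genes with low levels. Ventral levels were above dorsal levels at both stages, by 1.32 ± 0.14 at E9.5 and by 0.58 ± 0.14 at E10.5, and the level in E10 AoV was 2.38 ± 0.14 above that in E10 UGR.

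The exons of Runx1 add up to 7798 bases in the annotation, the largest sum of the 10 genes, and levels of different members are compared here per length. Per kilobase of exon its level in E10 AoV was 3.02 RPM per kb, seventh of the members, and in E9 AoD it was 0.438 RPM per kb, ninth. Cbfb, its obligate partner subunit, measured 177 to 223 RPM as a group mean and rose between stages by 0.27 in AoV and by 0.31 in AoD on the log2 scale (limma adjusted p = 0.0042 and 0.00097). The genes whose values over the 15 libraries, centred on their own mean, lay closest to those of Runx1 were Myl9 (root mean square difference 0.22 on the log2 scale), Procr (0.23) and Trim47 (0.24). Myl9, the closest, had group means of 156 RPM in E10 AoV, 40.4 RPM in E10 UGR and 29.5 RPM in E9 AoD. Procr, which encodes the endothelial protein C receptor and marks HSC precursors, had group means of 9.91 RPM in E10 AoV, 1.94 RPM in E10 UGR and 1.75 RPM in E9 AoD. Those of Trim47 were 13.5, 2.74 and 2.24 RPM. The authors describe Runx1 expression in blood lineages and also in the mesenchyme below the aorta. Which cells carried the Runx1 level was not tested. Runx1t1, whose protein is known as a fusion partner of RUNX1 in leukemia, was also higher ventrally at both stages, by 1.76 at E9.5 and by 0.72 at E10.5, both past the test.

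Gata2 (ENSMUSG00000015053, chr6:88143885-88157024, plus strand) encodes a zinc finger factor of HSCs and of several non-blood tissues, the urogenital system among them. At E9.5 it measured 6.32, 6.45 and 3.96 RPM in AoD and 11.4, 12.1 and 10.8 RPM in AoV. The later libraries (E10.5) held 22.5, 22.6 and 19.3 RPM in AoD and 21.8, 20.3 and 20.7 RPM in AoV. The urogenital ridges, at 64.2, 67.5 and 61.8 RPM, lay above the ventral aorta of the same stage by 1.62 and above the dorsal by 1.59 on the log2 scale, both past the test. The aortic groups of E10.5 overlapped and differed by 0.03 ± 0.14 on the log2 scale (limma adjusted p = 0.88, 95% interval of ventral minus dorsal -0.33 to 0.26), whereas every other neighbouring pair of groups differed past the test. Gata2 rose between stages by 0.87 ± 0.14 in AoV and by 1.96 ± 0.14 in AoD, and at E9.5 it was higher ventrally by 1.05 ± 0.14 (limma adjusted p = 0.00011, 2.6e-08 and 1.6e-05). The ventral excess at E9.5 fell under 2-fold without E9 AoD replicate 3 (0.83) and when each library was scaled to the summed level of 16 endothelial markers (0.32), past the test in the latter (limma adjusted p = 0.012). By construction that scaling shifted the median of all genes, by -0.73 in this comparison.

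Gata2 and markers of the nephric duct were both highest in E10 UGR. The 10 nephric duct markers (among them Emx2, Ret and Gata3) summed to between 484 and 490 RPM in E10 UGR and to between 73.2 and 130 RPM in the other libraries, and all 10 were lower in E10 AoV than in E10 UGR. Gata3, a paralog of Gata2 that the nephric duct expresses, was likewise highest in E10 UGR, at 41.1 RPM against 10.8 to 19.5 RPM in the aortic groups. Between stages Gata2 rose in both parts of the aorta. The mean sum of the nephric duct markers was 98.5 and then 79.1 RPM in AoD, where the libraries overlapped. In AoV it was 78.5 and then 113 RPM, without overlap. The part of these cells in the level of Gata2 was not tested. Per 1000 RPM of the 16 endothelial markers Gata2 stood at 86.9 ± 1.49 in E10 UGR and at 21.5 ± 1.13 in E10 AoV (SD, n = 3). The genes nearest to Gata2 over the 15 libraries were Papss2, Tbx2 and Veph1, at root mean square differences of 0.30 to 0.34, all of them highest in E10 UGR.

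Tal1, Lyl1 and Lmo2 encode members of one kind of complex, in which the LIM protein Lmo2 bridges a basic helix-loop-helix factor, Tal1 or its paralog Lyl1, to a GATA factor. Gfi1b, a repressor of red cell and platelet precursors, is described with them because its values over the libraries lay closest to those of Tal1. The 250 bases before a start of Tal1 (chr4:115056176-115056425, plus strand), Lyl1 (chr8:84701207-84701456, plus strand) and Gfi1b (chr2:28621983-28622232, minus strand) are printed, from RefSeq on GRCm38.p6, because Tal1 with Gfi1b and Tal1 with Lyl1 were the closest pairs of members over the 15 libraries. Capitals mark matches to a GATA motif (AGATAA) in Tal1, to E-box and ETS motifs in Lyl1 and to a GFI motif (AAATCA) in Gfi1b, on either strand.
Tal1: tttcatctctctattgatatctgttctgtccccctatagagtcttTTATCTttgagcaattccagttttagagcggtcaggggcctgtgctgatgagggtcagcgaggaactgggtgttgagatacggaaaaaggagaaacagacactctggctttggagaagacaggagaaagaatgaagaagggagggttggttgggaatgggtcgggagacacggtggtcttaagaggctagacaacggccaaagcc
Lyl1: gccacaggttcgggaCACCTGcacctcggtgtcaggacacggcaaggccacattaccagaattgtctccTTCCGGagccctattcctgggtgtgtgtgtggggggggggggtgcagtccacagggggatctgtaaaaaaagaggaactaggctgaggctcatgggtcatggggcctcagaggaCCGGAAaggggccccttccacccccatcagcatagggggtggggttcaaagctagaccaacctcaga
Gfi1b: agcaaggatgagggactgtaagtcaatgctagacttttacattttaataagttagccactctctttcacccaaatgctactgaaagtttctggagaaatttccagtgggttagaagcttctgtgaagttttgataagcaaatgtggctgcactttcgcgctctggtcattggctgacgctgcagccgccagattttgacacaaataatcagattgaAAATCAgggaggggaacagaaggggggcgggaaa

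Motifs were searched on both strands in 14 windows of 8 members, those with an entry in the promoter table (all but Lmo2 and Fli1). Of 32841 promoter windows of this length 9.99% held AGATAA, 14% TGTGGT (a RUNX motif), 12% CCGGAA, 44.8% CAGNTG and 12.4% AAATCA. Among the member windows 2, 0, 2, 4 and 1 of 14 held them, in that order. Both Gata2 windows and the Myb window held none, and neither did those of Tal1 start 2, Erg starts 1 and 2 and Gfi1 start 2, numbered along the gene. The printed Tal1 window is that of start 1. The motifs matched in the printed windows do not overlap each other.

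Tal1 (ENSMUSG00000028717, NCBIM37 chr4:114729031-114744360, plus strand) is needed for the formation of all blood. At E9.5 it measured 30.9, 21.3 and 22.7 RPM in AoD and 48.8, 21.8 and 37.7 RPM in AoV. Its E10.5 levels were 32.2, 41.0 and 39.2 RPM in AoD, 25.8, 40.3 and 37.4 RPM in AoV and 21.1, 30.8 and 27.3 RPM in UGR. The libraries of E9 AoV alone spanned 2.24-fold, and no pair of neighbouring groups in the order of means passed the test. From E9 AoD to E10 AoD, where the libraries did not overlap, the log2 difference was 0.60 ± 0.25 (limma adjusted p = 0.054).

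In E9.5 libraries Gfi1b (ENSMUSG00000026815, chr2:28464970-28477502, minus strand) measured 2.83, 1.91 and 1.95 RPM in AoD and 4.54, 1.46 and 3.30 RPM in AoV. At E10.5 it measured 3.56, 3.44 and 4.28 RPM in AoD, 2.31, 3.99 and 3.52 RPM in AoV and 2.22, 3.23 and 3.75 RPM in UGR. None of its 10 differences between pairs of groups passed the test, and its libraries spanned 3.11-fold within E9 AoV. In E9.5 libraries Lyl1 (ENSMUSG00000034041, chr8:87225356-87228614, plus strand) measured 8.26, 5.37 and 4.89 RPM in AoD and 14.7, 8.58 and 10.9 RPM in AoV. The later libraries (E10.5) held 12.9, 11.5 and 11.8 RPM in AoD, 11.4, 13.4 and 13.9 RPM in AoV and between 7.70 and 9.0 RPM in UGR. All libraries of E9 AoD lay below those of the other aortic groups, and Lyl1 was higher than there by 0.99 ± 0.19 in E10 AoD and by 0.88 ± 0.19 in E9 AoV (limma adjusted p = 0.00037 and 0.0013). Scaled to endothelial markers these were 0.18 and 0.14 and did not pass (limma adjusted p = 0.36 and 0.47). The scaling shifted the median of all genes by -0.80 and -0.73 in these comparisons.

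The spread of Tal1 and Gfi1b within groups went with red cell RNA. The summed level of 15 erythroid markers, most of it from the embryonic globin genes Hbb-y, Hbb-bh1 and Hba-x, was at E9.5 9835, 4339 and 6001 RPM in AoD and 15879, 3348 and 9506 RPM in AoV. At E10.5 it was 10411, 13158 and 13767 RPM in AoD, 6486, 12442 and 10110 RPM in AoV, and 6397, 10148 and 9287 RPM in UGR, and none of the 15 markers passed the test between AoV and AoD at either stage. Between stages 1 rose past the test in AoV and 2 in AoD, beside 23.6% and 30% of tested genes. The median log2 difference of the markers was 0.24 in AoV and 0.93 in AoD. Within 4 of the 5 groups the libraries of Tal1 stood in the same order as the erythroid sum, as they did for 0.825% of all tested genes in at least 4 groups. The same held in 3 groups for Gfi1b (3.51% of tested genes in at least 3), in 2 for Lyl1 (17.3% in at least 2), in 1 each for Lmo2 and Myb, and in none for Runx1, Gata2, Fli1, Erg and Gfi1.

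**Figure D2:**
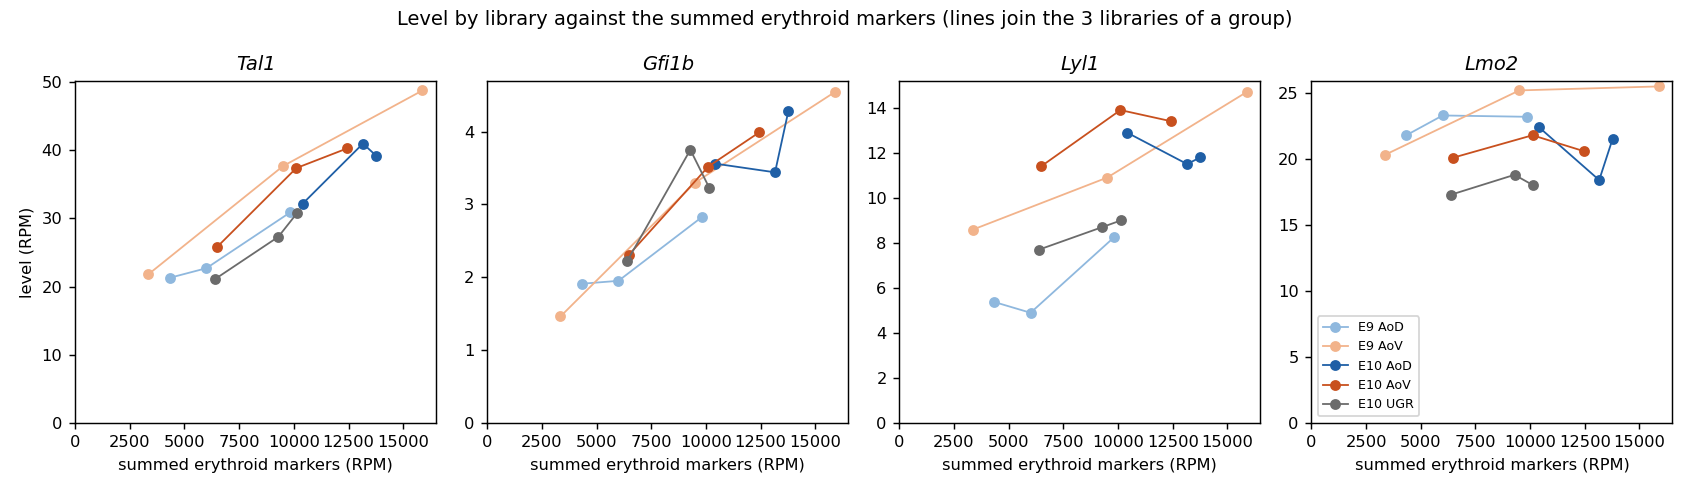
Level in RPM of Tal1, Gfi1b, Lyl1 and Lmo2 (y axis) against the summed RPM of 15 erythroid markers (x axis) in each library, both linear from 0. Lines join the 3 libraries of a group. Tal1 stood in the order of the erythroid sum in 4 of the 5 groups and Gfi1b in 3, while Lmo2 stayed between 17.3 and 25.5 RPM.

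A fit with the log2 erythroid sum as a further term, chosen after the data were seen, gave smaller errors for these genes. In it Tal1 differed by 0.07 ± 0.08 between E10 AoD and E9 AoD (limma adjusted p = 0.49), by 0.29 between E9 AoV and E9 AoD (adjusted p = 0.0023) and by 0.30 ± 0.07 between E10 AoV and E10 UGR (adjusted p = 0.0034). Lyl1 remained 0.66 ± 0.13 higher in E10 AoD than in E9 AoD (limma adjusted p = 0.00066), and Gfi1b again passed in no main comparison. In the fit of E9 AoV and E9 AoD alone with the replicate number as a block, where equal numbers deviated together, Tal1 was 0.47 higher in E9 AoV (limma adjusted p = 0.017, against 0.14 for all libraries without the block). Without E9 AoV replicate 2, the library lowest in erythroid markers, the differences of Tal1 (0.80) and Gfi1b (0.79) between these groups passed as well (limma adjusted p = 0.0075 and 0.024). Over all 15 libraries the nearest genes to Tal1 were Mgst3, Abcb10 and Ikzf1, and those nearest to Gfi1b were Nfe2, Pklr and Ube2l6. Nfe2 encodes an erythroid and megakaryocytic factor, Pklr the red cell pyruvate kinase and Abcb10 a mitochondrial transporter that red cell precursors use. Among pairs of members Tal1 and Gfi1b lay closest (root mean square difference 0.21 on the log2 scale), followed by Tal1 and Lyl1 (0.27). Hspa12b, Fam109b and Inf2 were the genes nearest to Lyl1.

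Lmo2 (ENSMUSG00000032698, chr2:103798143-103822035, plus strand) was the member that moved least. At E9.5 it measured 23.2, 21.8 and 23.3 RPM in AoD and 25.5, 20.3 and 25.2 RPM in AoV. Its E10.5 levels were 22.4, 18.4 and 21.5 RPM in AoD, 20.1, 20.6 and 21.8 RPM in AoV and 17.3, 18.0 and 18.8 RPM in UGR. None of its differences passed the test in the comparisons of stage, of position or with the ridges of the same stage, while E10 UGR lay below E9 AoD (by 0.33) and E9 AoV (by 0.38) past the test. With the erythroid sum as a term Lmo2 fell with stage past the test, by 0.20 in AoV and by 0.25 in AoD (limma adjusted p = 0.034 and 0.022). Scaled to endothelial markers its difference was -0.96 between E10 AoD and E9 AoD (limma adjusted p = 5.8e-07), where the scaling shifted the median of all genes by -0.80. Between E9 AoV and E9 AoD it was -0.69 (limma adjusted p = 4.1e-05), beside a shift of all genes by -0.73. The 95% intervals of its log2 differences in the 6 comparisons of groups, without term or scaling, lay between -0.36 and 0.40. Per kilobase of exon it was the highest of the 10 members in E9 AoD, E9 AoV and E10 AoV (9.62 to 10.9 RPM per kb). The genes nearest to it, C230096C10Rik, Slc39a7 and Pim1, shared this flat profile with root mean square differences of 0.075 to 0.090. Ldb1, the protein that Lmo2 recruits into its complex, had group means of 188 to 212 RPM and no difference past the test in the 6 comparisons of groups.

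Fli1 (ENSMUSG00000016087, chr9:32229793-32348974, minus strand) and Erg (ENSMUSG00000040732, chr16:95580776-95808200, minus strand) are paralogous ETS factors. At E9.5 Fli1 measured 22.1, 25.2 and 22.1 RPM in AoD and 19.7, 19.1 and 22.0 RPM in AoV. At E10.5 it measured 56.0, 57.4 and 48.0 RPM in AoD, 27.3, 27.7 and 24.9 RPM in AoV and 38.5, 37.1 and 32.9 RPM in UGR. All libraries of E10 AoD lay above those of every other group. It was the only member lower ventrally at E10.5 past the test, by 1.01 ± 0.08 (2.01-fold, limma adjusted p = 2.5e-07), and it rose between stages by 1.21 ± 0.08 in AoD and by 0.39 ± 0.08 in AoV (adjusted p = 2.6e-08 and 0.0016). It was also 0.57 ± 0.08 higher in E10 AoD and 0.44 ± 0.08 lower in E10 AoV than in E10 UGR. Scaled to endothelial markers, the rise in AoD was 0.39 (limma adjusted p = 0.0021), under 2-fold, and Fli1 was lower ventrally at E9.5 by 0.93 past the test (adjusted p = 1.6e-07), against a difference of -0.19 without scaling (adjusted p = 0.080). The scaled difference between E10 AoD and E10 UGR was 0.21 and did not pass (limma adjusted p = 0.086). In these comparisons the scaling shifted the median of all genes by -0.80, -0.73 and -0.355, in that order.

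The genes closest to Fli1 over the 15 libraries were Mecom, Cnp and Lrrn2. Mecom, which encodes an HSC factor that the mesonephros also expresses, had a group mean of 127 RPM in E10 AoD, against 94.9 RPM in E10 UGR and 54.9 RPM in E10 AoV. The name Mecom belongs to 2 entries, and the one with the higher mean RPM is given here and below. In E10 AoD the 10 sclerotome and myotome markers summed to 634 to 809 RPM (43.8 to 51.9 RPM in E10 AoV), the 10 sympathetic and neural crest markers to 425 to 503 RPM (208 to 230 RPM) and the 4 notochord markers to 143 to 163 RPM (4.05 to 4.30 RPM), while the endothelial markers summed to 905 to 983 RPM against 933 to 1003 RPM. At E9.5 the sclerotome and myotome markers were also high dorsally, at 545 to 551 RPM in AoD against 69.1 to 93.7 RPM in AoV. The sympathetic and neural crest markers were then at 210 to 248 RPM in AoD and 216 to 225 RPM in AoV. The notochord markers were at 54.0 to 61.5 RPM in AoD and 46.2 to 58.4 RPM in AoV. Fli1 itself was at 22.1 to 25.2 RPM in E9 AoD and at 19.1 to 22.0 RPM in E9 AoV. The part of these tissues in the level of Fli1 was not tested.

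At E9.5 Erg measured 12.7, 15.3 and 11.9 RPM in AoD and 19.2, 20.3 and 23.0 RPM in AoV. The later libraries (E10.5) held 18.9, 17.6 and 17.4 RPM in AoD, 21.2, 21.3 and 17.9 RPM in AoV and 17.9, 17.8 and 16.4 RPM in UGR. E9 AoD stood below all other groups, which overlapped in part. Erg was higher than there by 0.65 ± 0.10 in E9 AoV and by 0.44 ± 0.10 in E10 AoD (limma adjusted p = 6.4e-05 and 0.0013), and both signs turned when the libraries were scaled to the endothelial markers (-0.09 and -0.38). The median of all genes was shifted by -0.73 and -0.80 in that scaling. The genes nearest to Erg were Serpinh1, Glt8d3 and ENSMUSG00000026276, whose name is stored as a date in the table, at root mean square differences of 0.095 to 0.097.

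Gfi1 (ENSMUSG00000029275, chr5:108145674-108155056, minus strand) had the lowest level of the 10 members per kilobase of exon in every group, at 0.0806 to 1.32 RPM per kb, with the reservation that the annotation of this build gives it only a non-coding transcript model. At E9.5 it measured 0.541, 0.591 and 0.235 RPM in AoD and 3.08, 4.01 and 2.78 RPM in AoV. Its E10.5 levels were 2.02, 1.33 and 2.49 RPM in AoD and 3.92, 3.71 and 5.22 RPM in AoV. In E10 UGR it measured 0.119, 0.329 and 0.338 RPM, the lowest of these being worth 4.02 reads. Ventral libraries lay above dorsal libraries at both stages without overlap, by 2.66 ± 0.32 at E9.5 (6.33-fold, limma adjusted p = 7.2e-06) and by 1.13 ± 0.32 at E10.5 (2.18-fold, adjusted p = 0.012). The difference at E10.5 lost its call without E10 AoD replicate 2 (0.89, limma adjusted p = 0.057) or without E10 AoV replicate 3 (0.98, adjusted p = 0.052). Gfi1 rose by 1.91 ± 0.32 in AoD between stages, while the difference between E10 AoV and E9 AoV was 0.37 ± 0.32 (limma adjusted p = 0.00012 and 0.36).

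Against E10 UGR, Gfi1 was higher by 3.65 ± 0.32 in E10 AoV and by 2.53 ± 0.32 in E10 AoD, both past the test. In the order of group means, E10 AoV and E9 AoV did not differ past the test, nor did E9 AoV and E10 AoD, nor E9 AoD and E10 UGR. Its profile was near to those of Prdm6, Sdpr and Adamts2, at root mean square differences of 0.46 to 0.52. Gfi1b, the paralog of Gfi1 that binds the same DNA motif, had none of these differences past the test. A long non-coding gene on the opposite strand shares 101 bases with the exons of Gfi1 (3.11% of them).

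Myb (ENSMUSG00000019982, chr10:20844736-20880790, minus strand) encodes a factor of progenitor growth. At E9.5 it measured 3.58, 5.29 and 4.91 RPM in AoD and 6.21, 6.44 and 5.69 RPM in AoV. At E10.5 it measured 6.52, 6.54 and 6.61 RPM in AoD, 8.87, 8.56 and 9.99 RPM in AoV and 10.2 ± 0.32 RPM in UGR (SD, n = 3). No groups of Myb overlapped. It rose between stages by 0.57 ± 0.12 in AoV and by 0.52 ± 0.12 in AoD (limma adjusted p = 0.00097 and 0.0013). It was higher ventrally by 0.42 ± 0.12 at E9.5 and by 0.47 ± 0.12 at E10.5 (limma adjusted p = 0.0076 and 0.0052), and E10 AoV and E10 UGR did not differ past the test (difference -0.16, 95% interval -0.41 to 0.08). Scaled to the endothelial markers, the rise in AoD (-0.28) and the ventral excess at E9.5 (-0.31) changed sign, and the level in E10 AoV was below that in E10 UGR past the test (-0.55, limma adjusted p = 0.0024). That scaling shifted the median of all genes by -0.80, -0.73 and -0.38 there, in that order. Aldh6a1, Ttc38 and Casp6 were the nearest genes, at 0.11 to 0.14. The non-coding gene Gm16786, at a mean of 0.212 RPM, overlaps 13% of the exons of Myb on the opposite strand, and the counting is not stated to use strand.

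Over the 10 members, the comparison of stages in the ventral aorta asked what changed as the region gained HSC activity. In E10 AoV against E9 AoV 4 members rose past the test, Runx1, Gata2, Fli1 and Myb, and none fell, beside 23.6% of all tested genes that rose and 22.4% that fell. Only Runx1 also changed at least 2-fold, beside 6.04% of tested genes, and the libraries of 4 members did not overlap, beside 55% of tested genes. The median log2 difference of the members was 0.29 and that of all tested genes -0.0016.

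In E10 AoD against E9 AoD 7 members rose past the test (all but Tal1, Lmo2 and Gfi1b) and none fell, beside 30% of tested genes that rose and 27.9% that fell. Of these, 4 rose at least 2-fold (Runx1, Gata2, Fli1 and Gfi1), beside 8.6% of tested genes, and the libraries of 9 members did not overlap, beside 60.7%. The median was 0.87 against -0.0019 over all tested genes. The libraries of E9 AoD, which enter this comparison, held more neural tube RNA than the others: 12 neural tube markers summed to 244 to 449 RPM there, to 36.2 to 64.5 RPM in E10 AoD and to 6.17 to 26.7 RPM in the other groups. Their endothelial markers summed to 463 to 614 RPM, against 714 to 1003 RPM in all others.

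The comparisons of position asked how the ventral side, where HSC clusters form, differed from the dorsal side. In E9 AoV against E9 AoD 6 members were higher past the test (Runx1, Gata2, Lyl1, Erg, Gfi1 and Myb), beside 27.5% of tested genes, and 3 of them at least 2-fold (Runx1, Gata2 and Gfi1), beside 8.32%. None was lower past the test, beside 20.1% of tested genes, and 7 did not overlap, beside 51.3% of tested genes. In E10 AoV against E10 AoD 3 members were higher (Runx1, Gfi1 and Myb), beside 20.2% of tested genes, and Fli1 was lower, beside 15.3%. At least 2-fold were Gfi1, higher, and Fli1, lower, beside 5.81% and 4.29% of tested genes, and the libraries of 4 members did not overlap, beside 49.5%. The difference of Fli1 lay just past 2-fold and was under 2-fold, though past the test, when E10 AoD replicate 1 (-0.98), E10 AoD replicate 2 (-0.96) or E10 AoV replicate 3 (-0.96) was left out. The 4 comparisons among the aortic groups share libraries and are not independent of each other.

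**Figure D3:**
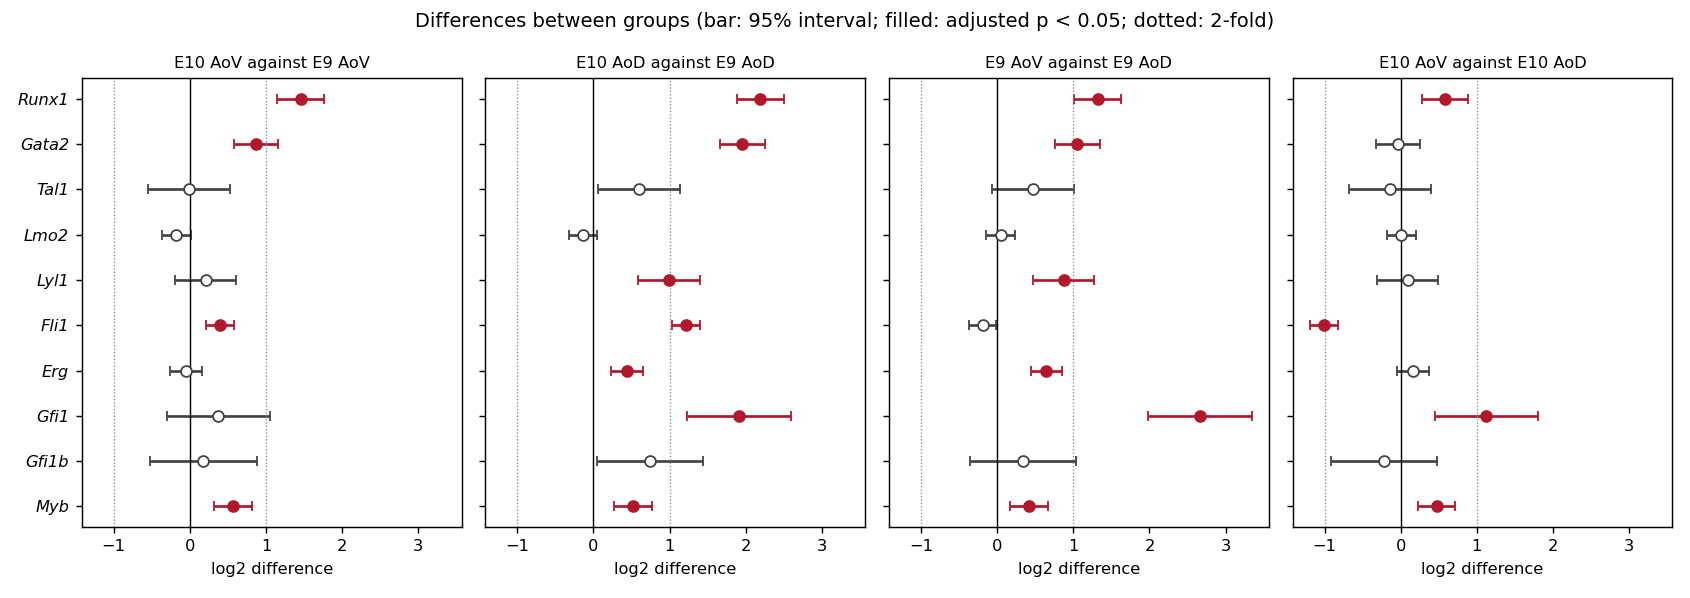
Log2 difference of each member (x axis, log2(RPM + 0.1) scale) in the 4 comparisons among aortic groups, with 95% intervals. Filled points have a limma adjusted p below 0.05 and dotted lines mark 2-fold. Between stages more members passed in AoD (7) than in AoV (4), and at E10.5 Fli1 was the one member lower in AoV past the test. Scaling to the endothelial markers turned the signs of Erg and Myb in E10 AoD against E9 AoD and in E9 AoV against E9 AoD. By construction it shifted the median of all genes by -0.80 and -0.73 there.

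The change with stage differed between the parts of the aorta for 6 members. In the interaction, the stage difference of AoV minus the stage difference of AoD, Runx1 (-0.74 ± 0.20), Gata2 (-1.09 ± 0.19), Lyl1 (-0.78 ± 0.27), Fli1 (-0.82 ± 0.12), Erg (-0.49 ± 0.14) and Gfi1 (-1.54 ± 0.45) were below 0 past the test, beside 16.3% of tested genes, and none was above. Gata2 and Gfi1 also reached 2-fold, beside 6.89% of tested genes. Tal1 (-0.61 ± 0.35), Gfi1b (-0.57 ± 0.46), Lmo2 (-0.04 ± 0.12) and Myb (0.05 ± 0.16) did not pass. Lyl1 (limma adjusted p = 0.039) no longer passed in 9 of 12 fits with 1 library removed, all but those without E9 AoD replicate 1, E9 AoV replicate 2 or E10 AoV replicate 3. Without E9 AoD replicate 3 the interaction of Gata2 was -0.86, which left Gfi1 alone at 2-fold.

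In the comparisons with the urogenital ridges, 3 members were higher in E10 AoV past the test (Runx1, Lyl1 and Gfi1), beside 12.5% of tested genes, and 2 were lower (Gata2 and Fli1), beside 16.6%. At least 2-fold were Runx1 and Gfi1, higher, and Gata2, lower, beside 3.84% and 3.73%. In E10 AoD against E10 UGR, which shares the ridges, 4 were higher (Runx1, Lyl1, Fli1 and Gfi1), beside 14.5%, and 2 were lower (Gata2 and Myb), beside 24.8%. At least 2-fold were again Runx1, Gfi1 and Gata2, in the same directions, beside 4.76% of tested genes that were higher and 6.56% that were lower. Against the ridges Lyl1 still passed for AoV without E10 AoV replicate 1 or without E10 UGR replicate 2, and without any other single library it did not. For AoD it did not pass in any fit with 1 library removed. For the pairs of groups that served only to order the levels, 66% of tested genes passed in either direction in E10 AoV against E9 AoD, 45.8% in E10 AoD against E9 AoV, 40.5% in E10 UGR against E9 AoV and 59.7% in E10 UGR against E9 AoD.

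Endothelial RNA moved with several of these differences. The 16 endothelial markers (among them Cdh5, Kdr and Tie1) summed at E9.5 to 544 ± 76.4 RPM in AoD and 904 ± 29.5 RPM in AoV, and at E10.5 to 956 ± 44.2 RPM in AoD, 973 ± 36.0 RPM in AoV and 742 ± 25.7 RPM in UGR (SD, n = 3). In E9 AoV against E9 AoD all 16 were higher past the test, in E10 AoD against E9 AoD 15 were, in E10 AoV against E9 AoV 6 were higher and 2 lower, and in E10 AoV against E10 AoD 2 were higher. In the interaction 14 of 16 were below 0 past the test, beside 16.3% of tested genes. The median of the markers was -0.68, beside the members' median of -0.67.

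Relative to the endothelial markers, Runx1 stood at E9.5 at 6.24 ± 0.670 RPM per 1000 RPM of the markers in AoD and at 9.44 ± 0.378 in AoV, and at E10.5 at 16.4 ± 0.980 in AoD, 24.3 ± 2.82 in AoV and 6.01 ± 0.770 in UGR (SD, n = 3). Its rise with stage was then 1.35 ± 0.12 in AoV and 1.38 ± 0.12 in AoD, and the ventral excess at E9.5 was 0.59 ± 0.12 (limma adjusted p = 1.3e-08, 3.1e-09 and 0.00016). By construction this scaling shifts the median of all genes, by -0.10 in AoV and -0.80 in AoD between stages, by -0.73 for position at E9.5 and by 0.70 in the interaction, so these are changes against the markers only. Scaled in this way, Gata2 (-0.38, limma adjusted p = 0.035) and Gfi1 (-0.94, adjusted p = 0.033) stayed below 0 past the test in the interaction, whereas Runx1 (-0.04, adjusted p = 0.86), Fli1 (-0.10) and Lyl1 (-0.08) did not pass and Erg had the opposite sign (0.23, adjusted p = 0.15). Lmo2 (0.67, limma adjusted p = 0.0021) and Myb (0.75, adjusted p = 0.0025) were then above 0 past the test, near the shift of all genes. Whether the amount of endothelium accounts for the changes in RPM was not tested.

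**Figure D4:**
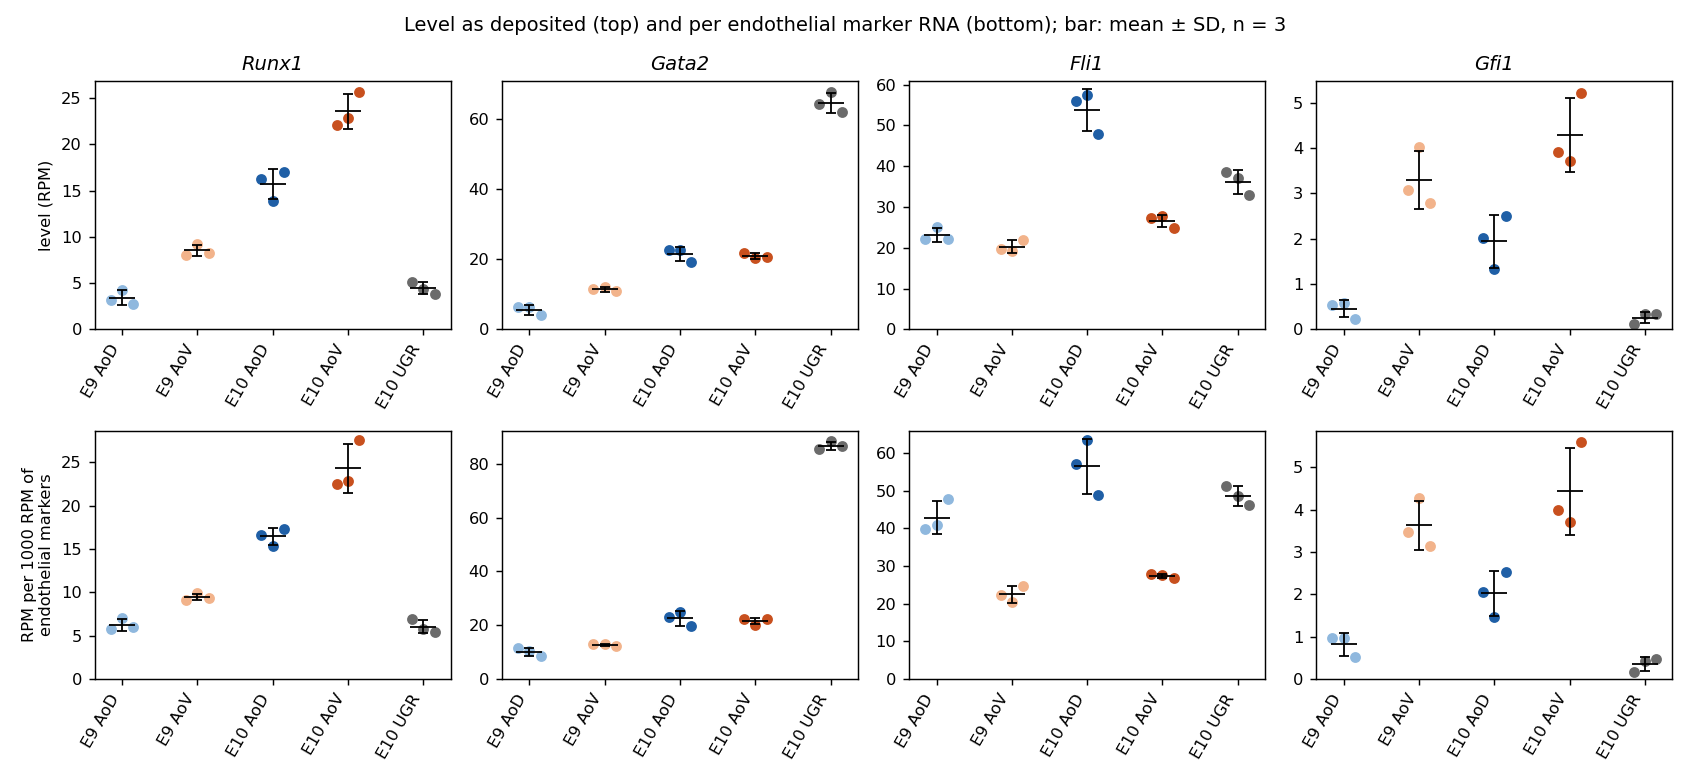
Level of Runx1, Gata2, Fli1 and Gfi1 in every library as deposited (top row, RPM) and per 1000 RPM of the summed 16 endothelial markers (bottom row), linear axes from 0. Points are libraries and bars the mean ± SD of 3. Per marker RNA, Runx1 stood at 9.12 to 9.86 in E9 AoV and at 15.4 to 17.3 in E10 AoD, and Fli1 stood at 39.9 to 47.8 in E9 AoD and at 20.4 to 24.8 in E9 AoV.

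Other genes of blood formation, listed by hand as partners and cofactors, other blood transcription factors, and surface and effector genes of blood cells, gave a frame for the members. Of 17 partners and cofactors, 5 rose and 3 fell in E10 AoV against E9 AoV past the test, beside 23.6% and 22.4% of all tested genes, and none of them changed 2-fold. In E9 AoV against E9 AoD 5 were higher and 5 lower, beside 27.5% and 20.1% of tested genes. Tcf3, which encodes the E proteins that pair with Tal1 and Lyl1, had group means of 313 to 356 RPM and was lower ventrally by 0.16 at E9.5 and by 0.19 at E10.5, past the test. Zfpm1, a cofactor of GATA factors, was higher ventrally at both stages, by 1.07 at E9.5 and 1.47 at E10.5. Cbfa2t3, a corepressor found with Tal1, fell between stages in AoV (-0.45) and rose in AoD (0.51).

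Of 24 other blood transcription factors tested, 8 rose and 4 fell in AoV between stages (all tested genes 23.6% and 22.4%), and 13 rose and 3 fell in AoD (30% and 27.9%). Spi1, the myeloid factor PU.1 that the table names Sfpi1, rose from 2.10 to 6.11 RPM in AoV and from 0.530 to 5.81 RPM in AoD. Bcl11a rose from 12.7 to 34.4 RPM in AoV and from 4.31 to 49.5 RPM in AoD, and the largest rises beside them were those of Lmo1 and Runx2 (1.86 and 1.46 in AoV, 1.89 and 2.12 in AoD). Lmo1 is a paralog of Lmo2 and Runx2 of Runx1, and both had higher group means at E10.5 than at E9.5. Etv2, an early inducer of endothelium and blood, fell from 1.33 to 0.280 RPM in AoV and from 1.52 to 0.264 RPM in AoD. Ventral levels at E9.5 exceeded dorsal levels at least 2-fold for Cebpa (2.22), Spi1 (1.81), Hhex (1.78), Bcl11a (1.54), Hlf (1.48) and Ikzf2 (1.06), while Tal2, a relative of Tal1, was lower (-1.10). The 8 hepatic and endoderm markers also summed higher there, to 488 to 731 RPM in E9 AoV against 15.5 to 42.0 RPM in E9 AoD. The part of that tissue in these differences was not tested. At E10.5 Mecom was the one gene of the other blood transcription factors that differed 2-fold between the parts of the aorta, lower ventrally by 1.21, as Fli1 was by 1.01. Against the ridges Gata3 was lower in both parts of the aorta (-1.08 in AoV and -1.42 in AoD), as its paralog Gata2 was. The red cell factors Gata1 and Klf1, which share target genes with Tal1, passed in none of the 6 comparisons of groups. Gata1 ranged from 6.32 to 10.3 RPM as a group mean, with an SD of 6.48 RPM in E9 AoV, where Tal1 spread as well.

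Of 18 surface and effector genes tested, 13 rose and 1 fell in AoV between stages, and 16 rose and 2 fell in AoD, beside the same shares of all tested genes. Ptprc, which encodes the pan-leukocyte CD45, rose from 0.691 to 4.27 RPM in AoV and from 0.388 to 4.91 RPM in AoD, and Spn, which encodes CD43, reached 3.27 RPM in E10 AoV. Csf1r, a receptor of macrophages and their precursors, rose by 1.78 in AoV and by 3.94 in AoD, and Rac2, a GTPase of blood cells, by 1.89 and by 2.77. Kit, the receptor on aortic clusters, was higher ventrally at both stages like Runx1 and Gfi1, with 61.5 against 20.7 RPM at E9.5 and 59.2 against 26.9 RPM at E10.5. Cd44 (2.06) and Spn (1.86) were, with Procr (2.30), the surface genes most above the ridges in E10 AoV, and Ly6a, which encodes Sca-1, was lower there than in the ridges by 2.60. Macrophage RNA rose as well: 14 markers summed to 7.06 to 16.1 RPM at E9.5 and to 56.7 to 104 RPM at E10.5, and 14 of 14 in AoV and 13 of 14 in AoD passed. The 10 megakaryocyte markers summed at E9.5 to 17.8 to 22.5 RPM in AoD and 37.5 to 46.3 RPM in AoV, and at E10.5 to 34.0 to 36.8 RPM in AoD, 47.2 to 57.5 RPM in AoV and 25.8 to 27.0 RPM in UGR. The part of these cells in the levels of the members was not tested.

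Markers of tissue next to the aorta differed between the groups as well. The 7 coelomic epithelium markers summed to 768 to 825 RPM in E10 AoV and 627 to 699 RPM in E10 UGR, against 45.4 to 229 RPM elsewhere, and the 8 hepatic and endoderm markers to 488 to 731 RPM in E9 AoV against 2.05 to 42.0 RPM elsewhere. No marker was at 0 in all 3 libraries of a group, except the notochord gene Noto in E10 AoV.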

How the data were processed

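Subdissected AGM tissue of wild-type C57BL/6 embryos was pooled, and poly(A) RNA libraries (TruSeq) were sequenced in single reads of 50 bases. The authors mapped reads to the mouse genome (NCBI37/mm9) with TopHat and Bowtie 0.12.3, counted them over Ensembl genes in GeneProf, with reads matching several genes divided in proportion to unique reads, and deposited RPM, the reads of a gene scaled to the library total. Counting is not stated to use strand. The authors' 12 comparison columns hold log2 fold changes and adjusted p-values from DESeq 2011-03-15, as deposited, and were not used. Of RPM values worth up to 30 reads, 56.3% to 58.7% per library were whole multiples of 1 read, within the rounding to 3 significant digits plus 0.02% of the value, and since the others were not, no count model was run.

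Genes reaching 0.5 RPM in 1 or more libraries were kept. A linear model of log2(RPM + 0.1) over the 15 libraries, with a mean for each group, was fitted in limma (version 3.58.1, R version 4.3.3) with an intensity trend, two-sided tests and Benjamini-Hochberg adjustment over 18553 genes. The scripts were tested on simulated data. A gene passed at an adjusted p below 0.05, and calls also needed 2-fold. Depth (33.8 to 48.6 M reads) was estimated from the step between low values, and read equivalents of a level cover counting error only. Exon lengths and positions came from Ensembl on NCBIM37, which held 97.4% of the tested genes. Named were all members, the 3 genes nearest to each member (mean of at least 1 RPM), and of each gene list the 3 with the highest mean RPM and, for blood genes, up to 4 with the largest call in each direction. Cbfb, Ldb1, Gata1, Klf1 and Noto were named after their values were seen. The members and lists were chosen with earlier results of these data known. Listed genes were matched by name or RefSeq synonym, and 1 erythroid gene was not matched. Replicate numbers were checked for pairing by the correlation of deviations from group means. Equal numbers correlated above 0.1 in every pair of E9 AoD and E9 AoV libraries (0.19 to 0.452) but in no other pair of groups throughout (-0.138 to 0.339). In E10 AoV and E10 UGR they also lay above all unequal numbers (0.0889 to 0.168, against at most -0.0217). What the number stands for is not given in the sources used here. Alternatives were another pseudocount, no filter, 3 other scalings, no trend, other thresholds, the replicate block, fits of the compared groups alone, 1 library left out, and, chosen after the data were seen, the erythroid sum as a term and the block within compared groups.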

Additional observations from a re-analysis of the deposited data

Results flagged for a closer look

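The stage difference of the ventral aorta differed from that of the dorsal aorta for 6 of the 10 members, by the interaction term of the limma fit, which tests the difference itself. On the log2 scale the ventral minus the dorsal stage difference was -0.7361 for Runx1 (adjusted p = 0.013), -1.0874 for Gata2 (0.00062), -0.7847 for Lyl1 (0.039), -0.8189 for Fli1 (0.00013), -0.4879 for Erg (0.015) and -1.5372 for Gfi1 (0.018). In each of the 6 the dorsal log2 stage difference was the larger. Of all tested genes 16.3% were below 0 past the test in this term. Scaled to endothelial markers, 4 of the 6 did not pass, at -0.04 for Runx1, -0.10 for Fli1, -0.08 for Lyl1 and 0.23 for Erg, while Gata2 (-0.38) and Gfi1 (-0.94) did. By construction the scaling shifted the median of all genes by 0.70 in this term. Without scaling, Lyl1 no longer passed in 9 of 12 fits with 1 library removed. Beside the 6 members, 14 of the 16 endothelial markers were below 0 past the test in the same term, and the summed endothelial level in E9 AoD (463 to 614 RPM) was below that of all other groups. The part of the endothelial level in these results was not tested.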

How the results depend on the processing

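The number of members called (adjusted p below 0.05 and at least 2-fold) was 1 in E10 AoV against E9 AoV, 4 in E10 AoD against E9 AoD, 2 in E10 AoV against E10 AoD, 3 in E9 AoV against E9 AoD, 3 in each comparison with E10 UGR and 2 in the interaction. In that order, with AoV before AoD against the ridges, 2046, 2337, 1874, 2187, 1404, 2100 and 2044 of 18553 tested genes were called. Without the fold threshold the members called were 4, 7, 4, 6, 5, 6 and 6. Of all tested genes 8537, 10730, 6587, 8846, 5405, 7282 and 5214 were then called. Tested against 2-fold itself the members were 0, 2, 0 and 1 in the first 4 and 0 in the interaction. Beside them were 970, 1025, 914, 1033 and 636 tested genes. With a pseudocount of 1 RPM 0 members were called in E10 AoV against E10 AoD and 0 in the interaction, beside 1020 and 1174 tested genes. Scaled to endothelial markers 1 member was called in E9 AoV against E9 AoD and 0 in the interaction, beside 3459 and 3523 tested genes. With quantile normalization 1 member was called in the interaction, beside 1984 tested genes. With 1 library removed the members called ranged from 0 to 2 in E10 AoV against E10 AoD (1 without E10 AoD replicate 1, 0 without E10 AoD replicate 2 or E10 AoV replicate 3) and from 1 to 3 in the interaction (1 without E9 AoD replicate 3). In these named fits 1820, 1861, 1863 and 1900 genes were called, in that order. The replicate number as a block over all libraries left all 7 counts at 1, 4, 2, 3, 3, 3 and 2. Under it only Lmo2 against the ridges crossed the p threshold (limma adjusted p = 0.041 for AoV and 0.040 for AoD).

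Of 1320 values of single members under the alternatives, 1163 kept direction and side of the p threshold, whatever the fold. Of the others 67 lost and 37 gained an adjusted p below 0.05, and 53 changed sign. Scaling to endothelial markers turned, in E10 AoD against E9 AoD, Tal1 (-0.2241), Erg (-0.3788), Gfi1b (-0.0501) and Myb (-0.2848), in E9 AoV against E9 AoD Tal1 (-0.2675), Lmo2 (-0.6920), Erg (-0.0913), Gfi1b (-0.3728) and Myb (-0.3085), in E10 AoV against E10 AoD Lmo2 (-0.0170), in E10 AoV against E10 UGR Tal1 (-0.0122), Lmo2 (-0.1804), Erg (-0.1788) and Gfi1b (-0.2894), in E10 AoD against E10 UGR Lmo2 (-0.1634), Erg (-0.3126) and Gfi1b (-0.0424), and in the interaction Tal1 (0.1046), Lmo2 (0.6749), Erg (0.2251) and Gfi1b (0.1259). Lmo2 also turned with quantile normalization (-0.0354 in E10 AoV against E10 AoD and -0.0298 in E9 AoV against E9 AoD) and with median-of-ratios scaling (-0.0155 in E10 AoV against E10 AoD). The erythroid term turned Tal1 (0.0855) and Gfi1b (0.0548) in E10 AoV against E10 AoD, Gfi1b against the ridges (-0.0128 for AoV and -0.0676 for AoD), and Lmo2 (0.0446) and Myb (-0.0275) in the interaction. With 1 library removed, signs turned within -0.3394 to 0.2401 (Tal1), -0.1061 to 0.0325 (Erg) and -0.2708 to 0.5155 (Gfi1b) in E10 AoV against E9 AoV, -0.1075 to 0.0058 (Gata2), -0.2618 to 0.0589 (Tal1), -0.0755 to 0.0657 (Lmo2) and -0.3797 to 0.0019 (Gfi1b) in E10 AoV against E10 AoD, -0.0087 to 0.1551 (Lmo2) in E9 AoV against E9 AoD, -0.1211 to 0.3125 (Gfi1b) in E10 AoV against E10 UGR, and -0.1462 to 0.0175 (Lmo2) and -0.0612 to 0.2141 (Myb) in the interaction. Beside scaling to endothelial markers, no value past the test turned. By construction the scaling to endothelial markers also shifted the median of all genes. The shift was -0.80 in E10 AoD against E9 AoD, -0.73 in E9 AoV against E9 AoD and 0.70 in the interaction. It was -0.025 in E10 AoV against E10 AoD, and against the ridges -0.38 for AoV and -0.355 for AoD. Any other cause of these changes was not tested. Depth limits Gfi1 in E10 UGR, where the lowest library held the worth of 4.02 reads.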
